A study of Mus musculus with 6 samples.

Results

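The epidermal growth factor (EGF) receptor, 2 receptors it pairs with, its ligands and its inhibitor Errfi1 were followed in epidermal basal cells of virgin and pregnant mice. All probe sets that the array annotation assigns to Egfr, Erbb2, Erbb3, Hbegf, Ereg, Btc, Areg, Tgfa, Epgn or Errfi1 were taken, whatever their values. They came to 21 of 45101 probe sets and to 9 of these 10 genes, out of 18193 genes with a probe set of their own. Areg, the amphiregulin gene, had no probe set under this annotation and was not analysed here. The cells came from female C57BL/6 mice aged 10 weeks, with no transgene or drug named for any group. The 3 groups of 2 arrays were ventral skin of virgin mice (virgin ventral), dorsal skin at 16 days post coitum (16 dpc dorsal) and ventral skin at the same day of pregnancy (16 dpc ventral). Skin was trypsinised and living cells bearing α6 integrin, the adhesion receptor by which basal keratinocytes hold on to the basement membrane, were sorted by flow cytometry. Dorsal skin of virgin mice was not analysed here.

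EGF receptor ligands are made as membrane proteins and are cut loose by metalloproteases of the ADAM family. A bound ligand joins receptors of the ErbB family into pairs, which phosphorylate each other and pass the signal on through RAS and ERK and through PI3 kinase. In the epidermis the receptor is abundant in the basal layer, keratinocytes make several of its ligands themselves, and the pathway is known for driving basal cell division and wound closure while holding back differentiation. Several of its target genes feed back on it: some encode ligands, others inhibitors such as Errfi1.

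The sort marker Itga6 and the basal keratin genes Krt14 and Krt5 were called present on all 6 arrays, as was Krt10 of the layers above. Between 47.2% and 53.3% of probe sets were called present per array. The ratio of actin signal at the 3′ to the 5′ end of the transcript, a sign of RNA quality, was highest on replicate 2 of both 16 dpc groups, at 4.47 (dorsal) and 3.90 (ventral), and 1.78 to 2.46 on the other 4 arrays. No label says that replicates were separate mice, so p-values measure the spread between these arrays, which may be technical. In RNA of a sorted population, fewer cells of a type and less RNA per cell cannot be told apart.

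Signal is the brightness of a probe set in arbitrary units after scaling of each array to a common mean, and it was compared only between arrays, not between genes. The probe set of highest mean signal stood for a gene. Log2 fold changes, their standard errors (SE) and p-values came from limma, fitted to all 6 arrays and adjusted over 10993 genes by the Benjamini-Hochberg method, with 0.05 as threshold. All 9 genes passed the filter on detection calls, and 7 of them were called present on all 6 arrays.

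None of the 9 genes passed the threshold in any comparison. In 16 dpc ventral over virgin ventral cells, 0 of 9 passed beside 0.2% of all genes tested, and 5 of 9 had an unadjusted p below 0.05 beside 11.6% of all genes. The ligand genes Hbegf, Ereg and Btc, the receptor gene Erbb3 and the inhibitor gene Errfi1 made up those 5, and all of them had the lower mean in 16 dpc ventral cells. The signals of the 2 groups did not overlap for 7 of 9 genes beside 43.6% of all genes, with 5 lower at 16 dpc (19.8% of all genes) and 2 higher (23.8%). The mean was lower for 6 of 9 genes, beside 47% of all. The median log2 fold change was -0.52 over the 9 genes and 0.02 over all genes. In 16 dpc ventral over 16 dpc dorsal cells, 0 of 9 passed beside 0.0819% of all genes, 1 of 9 (Errfi1) had an unadjusted p below 0.05 beside 5.09%, and 3 of 9 did not overlap beside 32.8%. All 3 were lower (19.7% of all genes) and 0 higher (13.1%), and 5 of 9 means were lower, beside 56.7%. Here the median was -0.01, against -0.03 over all genes. In 16 dpc dorsal over virgin ventral cells, which differ in both site and pregnancy, 0 of 9 passed beside 0% of all genes. Of the 9 genes 2 (Erbb3 and Hbegf) had an unadjusted p below 0.05 beside 7.27%, and 7 did not overlap beside 37.9%, with 6 lower (13.6%) and 1 higher (24.3%). The mean was lower for 7 of 9, beside 39.8%. Any 2 of these comparisons share a group of arrays, so they are not independent of each other.

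**Figure D1:**
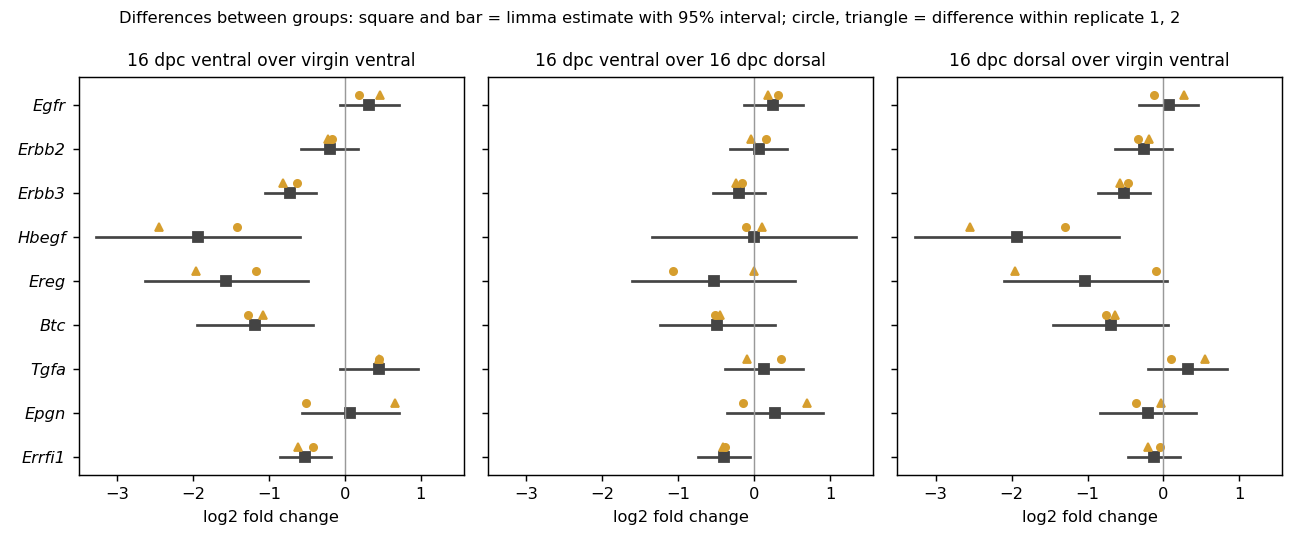
Log2 fold changes (horizontal axes) of the 9 genes in the 3 comparisons. Squares and bars give the limma estimate with its 95% interval, and the circle and triangle above each give the difference within replicate 1 and within replicate 2. Replicate numbers were not taken to pair all samples. In the left panel the intervals of Erbb3, Hbegf, Ereg, Btc and Errfi1 lie below 0, although 0 of the 9 genes passed after adjustment over all genes.

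Among the receptors, Egfr encodes the receptor for all the ligands described here. Its signals were 3889 and 3788 in virgin ventral cells, 3561 and 4560.4 in dorsal and 4436 and 5196 in ventral cells at 16 dpc. Both 16 dpc ventral arrays lay above both virgin arrays, while the dorsal arrays overlapped both other groups. The mean was 3838 ± 71.1 (SD, n = 2) in virgin and 4816 ± 538 in 16 dpc ventral cells, a log2 fold change of 0.32 ± 0.17 SE (adjusted p = 0.502, limma) with a 95% interval from -0.06 to 0.71. It was 0.21 without replicate 2 of the 16 dpc ventral group, 0.44 without replicate 1 of that group, and 0.17 when its probe sets were averaged. Erbb2 encodes the partner receptor that binds no ligand of its own. It stood at 1881 and 1628 in virgin ventral cells, 1489 and 1431 in dorsal and 1663 and 1394 in ventral cells at 16 dpc. The ventral groups overlapped, and the log2 fold change of 16 dpc ventral over virgin ventral cells was -0.20 ± 0.17 SE (adjusted p = 0.692).

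Erbb3 encodes the neuregulin receptor, whose own kinase is weak and which signals by pairing with the others. Its signals were 6865 and 6808 in virgin ventral cells, 4988 and 4560 in dorsal and 4448 and 3871 in ventral cells at 16 dpc. The 3 groups lay apart in that order with no overlap, the virgin arrays highest. The share of all genes whose 3 groups lie apart was not counted, so nothing is read from this trait. Against virgin ventral cells, the log2 fold change was -0.72 ± 0.15 SE in 16 dpc ventral cells (interval -1.06 to -0.38, adjusted p = 0.135) and -0.52 ± 0.15 SE in 16 dpc dorsal cells (adjusted p = 0.515). Its p-value in the first of these ranked 80 among the 10993 genes. The step from dorsal to ventral cells at 16 dpc was -0.20 ± 0.15 SE (adjusted p = 0.9999), so these neighbours in the order did not pass. Within replicate 1 the difference between 16 dpc ventral and virgin ventral cells was -0.63 and within replicate 2 it was -0.81.

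**Figure D2:**
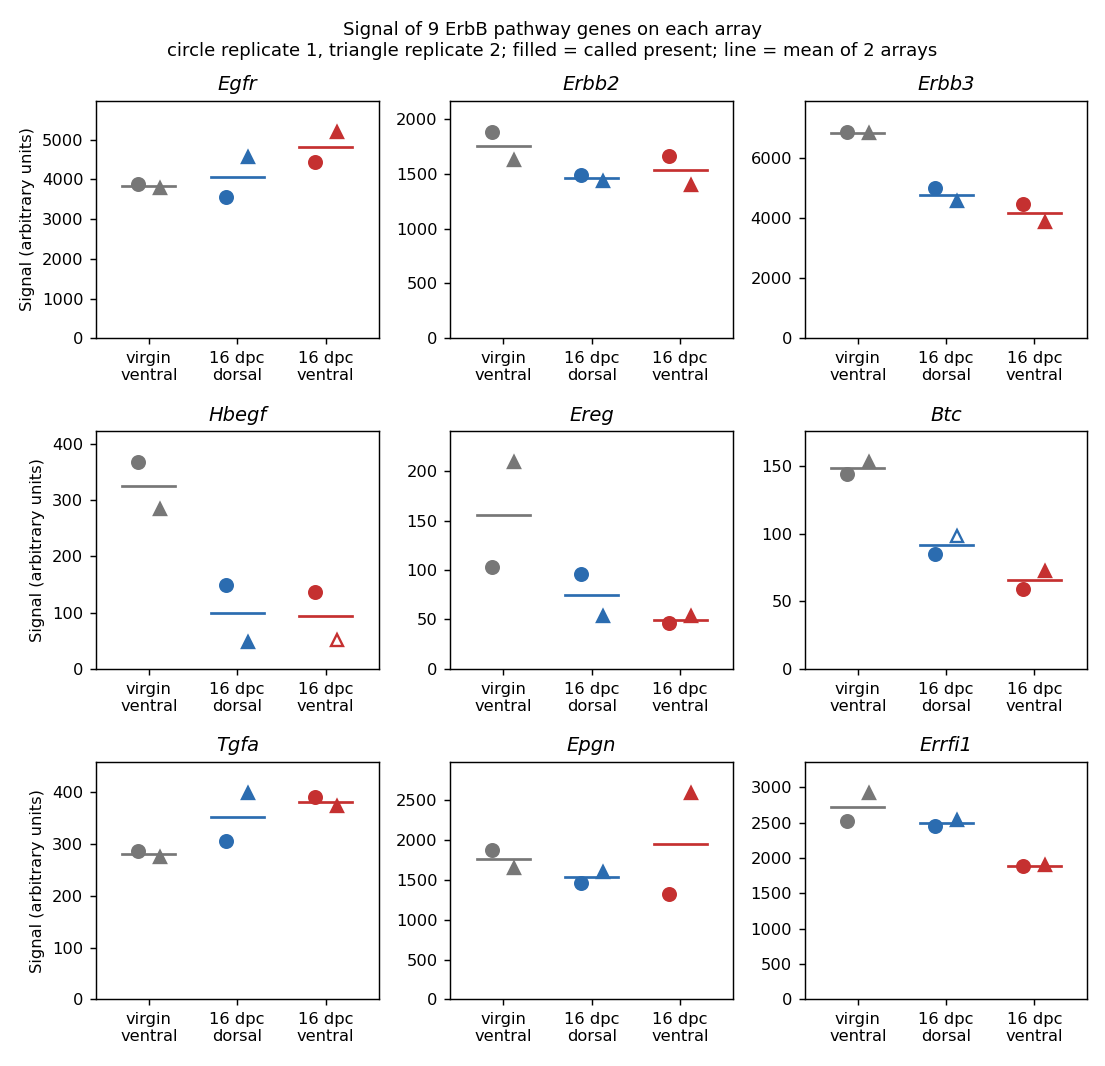
Signal in arbitrary units (vertical axes, each from 0) of the 9 genes on each of the 6 arrays, with a line at the mean of each group. Open symbols were not called present. Erbb3 and Btc are the 2 genes whose 3 groups do not overlap, and the share of all genes with this trait was not counted. Hbegf is lowest on replicate 2 of both 16 dpc groups.

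Hbegf encodes heparin-binding EGF-like growth factor, a ligand of EGFR and ErbB4 that keratinocytes release on wounding. Its signals were 367 and 283 in virgin ventral cells, 149 and 48.5 in dorsal and 137 and 51.9 in ventral cells at 16 dpc. Both virgin arrays lay above all 4 arrays of pregnant mice, and in each 16 dpc group the replicate 2 array, which had the high actin ratio, was the lower one. The gene was called present on 5 arrays and absent on replicate 2 of the 16 dpc ventral group. The mean was 325 ± 59.0 (SD, n = 2) in virgin and 94.6 ± 60.4 in 16 dpc ventral cells, and the log2 fold change of -1.93 ± 0.59 SE did not pass (adjusted p = 0.262, limma). In 16 dpc dorsal cells it was -1.93 ± 0.59 SE against virgin ventral cells (adjusted p = 0.588), or -1.12 without replicate 2 of that group and -2.73 without replicate 1, and 16 dpc ventral and dorsal cells differed by -0.01, with an interval from -1.35 to 1.34. Against virgin ventral cells the 16 dpc ventral difference was -1.42 within replicate 1 and -2.45 within replicate 2. Without both 16 dpc arrays of high actin ratio it was -1.23, by construction the value without 16 dpc ventral replicate 2 alone. The part of RNA quality in this difference was not tested.

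Ereg encodes epiregulin, a low-affinity ligand with broad action on ErbB receptors. It stood at 103 and 209 in virgin ventral cells, 96.3 and 53.7 in dorsal and 46.0 and 53.8 in ventral cells at 16 dpc. Both 16 dpc groups lay below the virgin arrays, and the virgin arrays were themselves far apart. The log2 fold change of 16 dpc ventral over virgin ventral cells was -1.56 ± 0.47 SE (interval -2.64 to -0.49, adjusted p = 0.259). That of 16 dpc dorsal cells was -1.03 ± 0.47 SE (adjusted p = 0.694), and it came to -0.10 within replicate 1 and -1.96 within replicate 2.

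Btc encodes betacellulin, a ligand of EGFR and ErbB4. Its signals were 144 and 153 in virgin ventral cells, 85.3 and 98.7 in dorsal and 59.4 and 72.3 in ventral cells at 16 dpc. As for Erbb3, the 3 groups were apart and the 16 dpc ventral arrays were lowest, and again nothing is read from this trait. The mean was 149 ± 6.11 (SD, n = 2) in virgin ventral cells, 92.0 ± 9.48 in dorsal and 65.8 ± 9.12 in ventral cells at 16 dpc. The log2 fold change of 16 dpc ventral over virgin ventral cells was -1.18 ± 0.34 SE (interval -1.94 to -0.42, adjusted p = 0.248), with -1.28 within replicate 1 and -1.08 within replicate 2. Ventral over dorsal cells at 16 dpc gave -0.49 ± 0.34 SE (adjusted p = 0.9999), so these neighbours did not pass. The gene was called absent on replicate 2 of the dorsal group.

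Tgfa, which encodes transforming growth factor α, a ligand of EGFR long known as a growth factor of keratinocytes, had the opposite order of means. It stood at 286 and 274 in virgin ventral cells, 306 and 399 in dorsal and 391 and 374 in ventral cells at 16 dpc. Both 16 dpc groups lay above the virgin arrays and overlapped each other. The log2 fold change of 16 dpc ventral over virgin ventral cells was 0.45 ± 0.23 SE (interval -0.07 to 0.96, adjusted p = 0.485). It was 0.45 within either replicate number, where any matching of arrays gives a higher value since these groups do not overlap. Epgn encodes epigen, a ligand of EGFR. Its signals were 1872 and 1645 in virgin ventral cells, 1455 and 1602 in dorsal and 1315 and 2588 in ventral cells at 16 dpc. The 2 ventral arrays at 16 dpc enclosed all the others, and their difference from virgin ventral cells was -0.51 within replicate 1 and 0.65 within replicate 2 (log2 fold change 0.07 ± 0.28 SE, adjusted p = 0.950). In the RefSeq gene table of GRCm38.p6, Epgn, Ereg, Areg and Btc follow each other on chromosome 5 with no other protein-coding gene between them. Of these neighbours Ereg and Btc had their highest mean in virgin ventral cells and Epgn in 16 dpc ventral cells.

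Errfi1 encodes the inhibitor that binds the kinase domain of EGFR and ErbB2, is induced by the pathway and sends the receptor to degradation. Its signals were 2529 and 2922 in virgin ventral cells, 2452 and 2539.9 in dorsal and 1883 and 1904 in ventral cells at 16 dpc. Both 16 dpc ventral arrays lay below all the others, and the other 2 groups overlapped. The mean was 1893 ± 14.6 (SD, n = 2) in 16 dpc ventral, 2496 ± 62.5 in 16 dpc dorsal and 2726 ± 278 in virgin ventral cells. The log2 fold change was -0.52 ± 0.15 SE over virgin ventral (interval -0.86 to -0.18, adjusted p = 0.248) and -0.40 ± 0.15 SE over 16 dpc dorsal cells (interval -0.74 to -0.06, adjusted p = 0.835). By replicate number the differences were -0.43 and -0.62 against virgin ventral and -0.38 and -0.42 against 16 dpc dorsal cells. Since the groups do not overlap, any matching of arrays gives lower values, so these add no support. The same holds for the differences by replicate number of Erbb3, Hbegf, Ereg, Btc and Tgfa from virgin ventral cells. Errfi1 was the one gene of the 9 with an unadjusted p below 0.05 in both ventral comparisons (0.00688 and 0.0258).

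The stretches upstream of Errfi1 and Btc are shown. Errfi1 was chosen as the gene with an unadjusted p below 0.05 in both ventral comparisons. Btc was chosen as the ligand gene whose 3 groups lay apart. The share of all genes with that trait was not counted, so it served only for the choice. Both stretches were taken from RefSeq promoter windows of GRCm38.p6, of which 8 windows of 7 of the 10 genes were used. Windows of Erbb3, Hbegf and Ereg were not used here, while the shares over all windows below were taken over every chromosome. Each line gives the 250 bases before the annotated start, 5′ to 3′ on the strand of the gene, and of 2 Errfi1 starts the one whose window held motifs was chosen. For Errfi1 this is chr4:150854820-150855069 on the plus strand and for Btc chr5:91402995-91403244 on the minus strand. Capitals mark matches on either strand to the cAMP response element TGACGTCA, the AP-1 motif TGANTCA, the TATA motif TATAAA or the EGR1 motif GCGTGGGCG. No match of one of these motifs lay on that of another.
Errfi1: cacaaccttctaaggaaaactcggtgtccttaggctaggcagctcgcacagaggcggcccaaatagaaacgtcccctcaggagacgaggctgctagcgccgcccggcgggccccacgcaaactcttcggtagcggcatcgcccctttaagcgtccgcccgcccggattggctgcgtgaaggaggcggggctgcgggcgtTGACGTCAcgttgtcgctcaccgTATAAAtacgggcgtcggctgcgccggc
Btc: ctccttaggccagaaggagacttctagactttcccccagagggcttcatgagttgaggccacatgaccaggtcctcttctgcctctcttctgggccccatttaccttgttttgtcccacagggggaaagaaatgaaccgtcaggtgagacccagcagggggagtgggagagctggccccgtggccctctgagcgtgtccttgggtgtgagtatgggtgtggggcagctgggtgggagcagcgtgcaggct
The Errfi1 window held TGACGTCA from 51 bases and TATAAA from 28 bases before the start, while the Btc window matched none of the 4 motifs. TGACGTCA was found in 2 of the 8 windows (Errfi1 and Areg) and in 1.55% of 32851 RefSeq windows of the same length, and TATAAA in 3 of 8 and in 12.4%. TGANTCA and GCGTGGGCG were found in 0 of 8 windows and in 6.75% and 0.536% of all. A match is a run of letters and was not tested for binding.

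Genes with several probe sets did not give one value. Of the 21 probe sets 11 were called present on all 6 arrays and 6 on none, and 14 entered a fit over 23017 detected probe sets, where 0 of 14 passed in each comparison beside 0%, 0.00434% and 0% of all probe sets. Of the 7 Egfr probe sets 5 were fitted. For 16 dpc ventral over virgin ventral cells 4 of them gave log2 fold changes from 0.12 to 0.49 and the remaining one -0.61, with a signal of 127 and 117 in virgin and 58.8 and 108 in 16 dpc ventral cells. The second Errfi1 probe set, present on all arrays, gave 0.06 ± 0.37 SE (145 and 167 in virgin, 226 and 116 in 16 dpc ventral cells), so the lower value of Errfi1 rests on its brighter probe set. The second Hbegf probe set was called absent on all 6 arrays. Its signals were 133 and 118 in virgin, 61.7 and 79.6 in 16 dpc dorsal and 88.6 and 62.8 in 16 dpc ventral cells, and no order is read from signals that were not above background. The second probe set of Erbb3 and both further probe sets of Tgfa were not called present on any array, and that of Btc was present on 2.

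**Figure D3:**
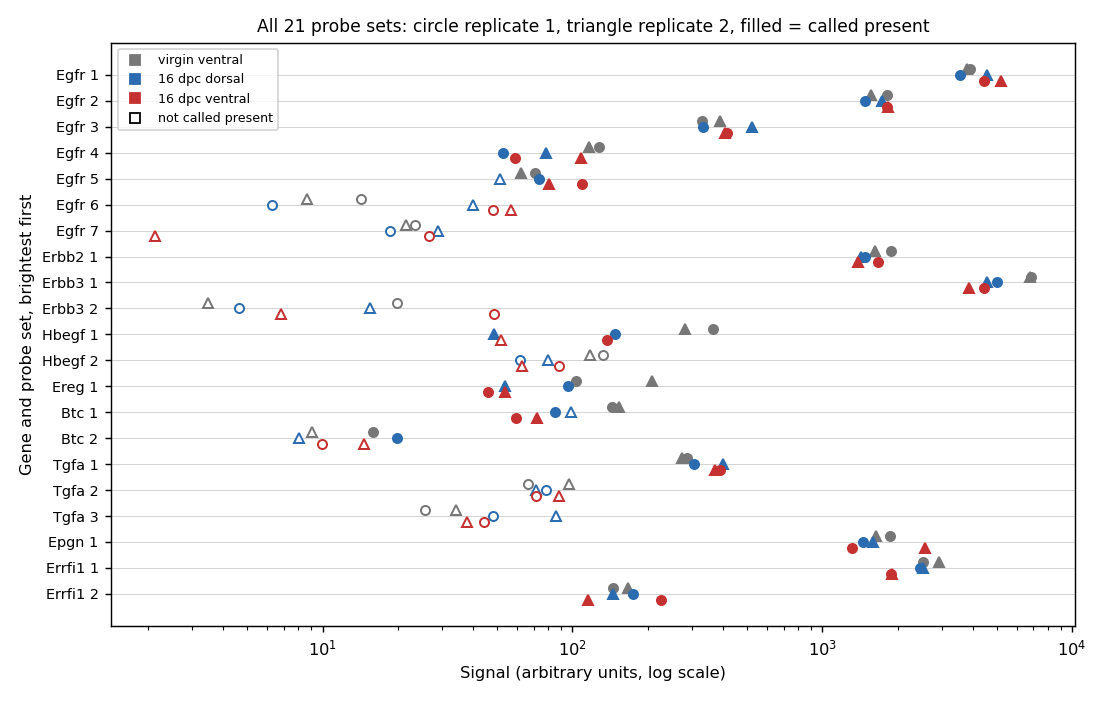
Signal in arbitrary units (horizontal log axis) of the 21 probe sets on the 6 arrays, grouped by gene and numbered from the brightest. Filled symbols were called present. The brightest probe set of each gene stood for it, and 6 of the dimmer ones have no filled symbol.

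For the 3 genes with the widest range of group means, the genes of most similar pattern were sought by the root mean square difference of log2 signals, each centred on its own mean, over the 6 arrays. They are given as a description. Those nearest to Hbegf were Fbxo32, which encodes a ubiquitin ligase subunit of muscle atrophy, at 0.21, the long non-coding RNA gene Lncpint at 0.23 and Synm, an intermediate filament gene, at 0.27. Fbxo32 stood at 5810 and 5196 in virgin ventral cells, 3133 and 1231 in dorsal and 2640.4 and 1008 in ventral cells at 16 dpc. It shared with Hbegf the lower values on both 16 dpc replicate 2 arrays. Nearest to Ereg were the keratin gene Krt23 (0.18), Tmem38a (0.24) and Ifitm6 (0.25). Krt23 stood at 346 and 505 in virgin ventral cells, 339 and 175 in dorsal and 154 and 178 in ventral cells at 16 dpc. Nearest to Btc were the adhesion molecule gene L1cam (0.10), Gipc2 (0.13) and Ypel2 (0.15). L1cam stood at 2560.4 and 2749 in virgin ventral cells, 1493 and 1637 in dorsal and 1243 and 1277 in ventral cells at 16 dpc. Its 3 groups were apart in the same order as those of Btc. L1cam was picked for its likeness to Btc, so the shared order adds nothing.

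Around the receptor, 0 genes of 5 further lists passed in any comparison (limma). Of 6 other genes of the family, the receptor gene Erbb4 and the neuregulin genes Nrg1 and Nrg3 were not called present on any array. The other 3 had overlapping ventral groups: the neuregulin genes Nrg4 (0.39) and Nrg2 (-0.29) and the gene of EGF itself, Egf (-0.34), as log2 fold changes of 16 dpc ventral over virgin ventral cells. Of 9 tested genes for the release of ligands, 3 had a higher and 6 a lower mean in 16 dpc ventral than in virgin ventral cells, with a median of -0.11. Of them 2 had an unadjusted p below 0.05, beside 11.6% of all genes. Those 2 were the genes of the inactive rhomboid Rhbdf2 (-0.59 ± 0.22 SE, adjusted p = 0.358), which escorts the sheddase ADAM17, and of the protease Bace2 (-0.63 ± 0.24 SE, adjusted p = 0.380). Adam15 stood at -0.27 and Timp3, an inhibitor of metalloproteases, at -0.38.

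Below the receptor, 25 adaptor and kinase genes were tested. In 16 dpc ventral over virgin ventral cells 11 had a higher and 14 a lower mean, with a median of -0.03. An unadjusted p below 0.05 was found for 2, beside 11.6% of all genes. Those were the docking protein gene Gab2 (-0.83 ± 0.28 SE, adjusted p = 0.311) and Grb2 (-0.41 ± 0.18 SE, adjusted p = 0.419), the adaptor that links receptors to RAS. Gab2 stood at 392 and 614 in virgin and 244 and 313 in 16 dpc ventral cells, with no overlap. The PI3 kinase subunit gene Pik3ca stood at -0.34 against virgin ventral and -0.19 against 16 dpc dorsal cells. Pik3cb stood at -0.17 and -0.47, and Pik3r1, named after its values were seen, at 0.36 and 0.14.

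Of 25 tested genes for feedback and receptor turnover, a list that leaves out Errfi1, 10 had a higher and 15 a lower mean in 16 dpc ventral than in virgin ventral cells, with a median of -0.10. Unadjusted p-values below 0.05 numbered 3, beside 11.6% of all genes. Against 16 dpc dorsal cells 8 had a higher and 17 a lower mean, with a median of -0.06 and 1 such p-value, beside 5.09% of all genes. Lrig1, a transmembrane inhibitor that promotes the breakdown of EGFR, stood at 3667 and 4217 in virgin ventral cells, 3177 and 2779 in dorsal and 2867 and 2117 in ventral cells at 16 dpc. Its virgin arrays were above all others (log2 fold change of 16 dpc ventral cells -0.67 ± 0.19 SE, adjusted p = 0.248). Its relative Lrig3 was at -0.63 ± 0.27 SE, the tetraspanin gene Cd82 at -0.73 ± 0.21 SE and the ERK phosphatase gene Dusp7 at -0.91 ± 0.40 SE, with adjusted p from 0.248 to 0.428. Dusp7 stood at 3026 and 2555 in virgin ventral cells, 2044 and 805 in dorsal and 1932 and 1135 in ventral cells at 16 dpc. As for Hbegf, it was lower on both 16 dpc replicate 2 arrays, and the part of RNA quality was not tested. Cd82 was also lower on both arrays than in 16 dpc dorsal cells (-0.50 ± 0.21 SE, adjusted p = 0.927).

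The genes known as targets of ERK went both ways. Of 20 tested, 7 had a higher and 13 a lower mean in 16 dpc ventral than in virgin ventral cells. An unadjusted p below 0.05 was found for 7, beside 11.6% of all genes. The list holds Hbegf, Ereg and Errfi1, all of them among those 7, and without them 10 of 17 were lower, with a median of -0.10. The ETS factor gene Etv4 stood at 60.5 and 32.3 in virgin ventral cells, 197 and 231 in dorsal and 160 and 172 in ventral cells at 16 dpc. It was called present on 0 virgin, 2 dorsal and 1 ventral arrays at 16 dpc, so it passed the detection filter through the dorsal group alone and has only a bound in virgin cells. The ratio of 16 dpc ventral to virgin ventral signals was 3.75, a lower bound only in that the virgin signals were not called present. As a log2 fold change it was 1.91 ± 0.38 SE and did not pass (adjusted p = 0.119, limma). Etv5, of the same family, stood at 672 and 592 in virgin ventral cells, 936 and 1269 in dorsal and 986 and 1201 in ventral cells at 16 dpc (0.79 ± 0.21 SE, adjusted p = 0.232). For Etv5 all 4 arrays of pregnant mice lay above the virgin arrays. Phlda1 was higher on both 16 dpc ventral arrays (460.2 and 486) than on the dorsal ones (253 and 300.0; 0.78 ± 0.21 SE, adjusted p = 0.560). Its virgin ventral arrays, at 455 and 392, lay between.

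**Figure D4:**
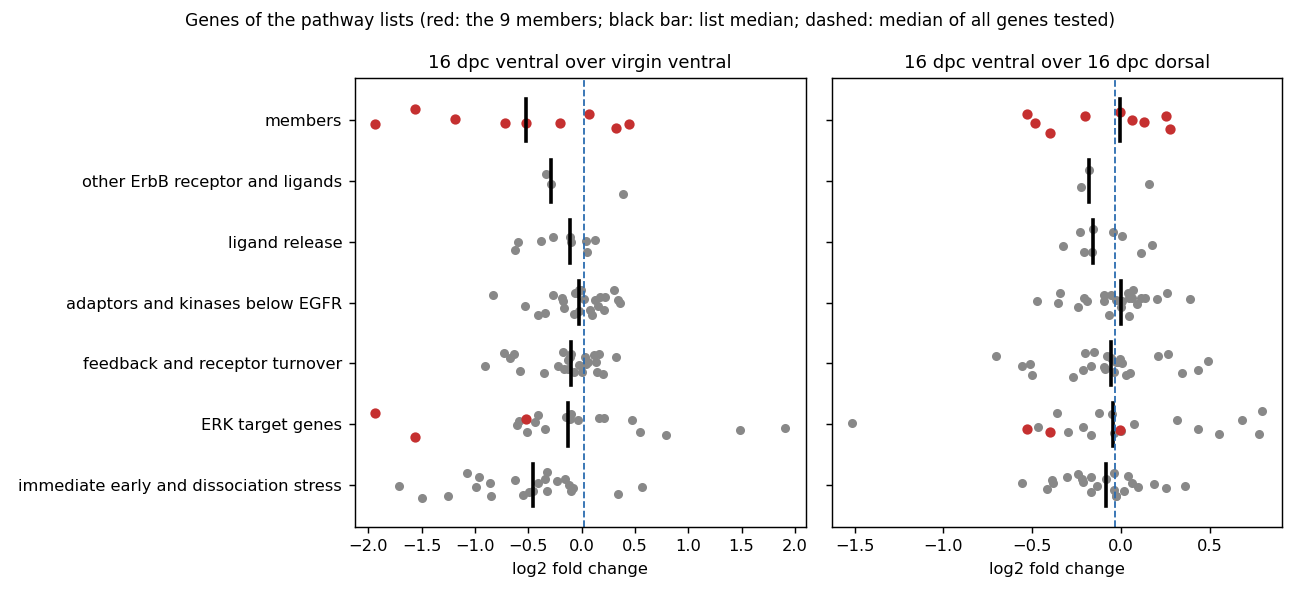
Log2 fold changes (horizontal axes) of the genes of 7 lists for 16 dpc ventral over virgin ventral (left) and over 16 dpc dorsal cells (right). Each point is a gene, red points are the 9 genes described here, black bars are list medians and the dashed line is the median of all genes tested. On the left, 21 of 23 immediate early genes lie below 0.

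Genes that cells induce at once on stimulation or on being taken out of the tissue made up a further list, of which 0 passed the threshold. Of 23 tested, 11 had an unadjusted p below 0.05 in 16 dpc ventral over virgin ventral cells, beside 11.6% of all genes. The mean was lower in 16 dpc ventral cells for 21 of 23 (median -0.45), beside 47% of all genes. It was 16 of 23 against 16 dpc dorsal cells (median -0.09, beside 56.7%) and 17 of 23 in 16 dpc dorsal over virgin ventral cells (median -0.26, beside 39.8%). The 2 with a higher mean against virgin ventral cells, Ier5 (0.57) and Gadd45a (0.34), are named for that, and both had groups apart. Atf3 stood at 1213 and 1170 in virgin ventral cells, 471 and 638 in dorsal and 316 and 791 in ventral cells at 16 dpc (-1.25 ± 0.37 SE, adjusted p = 0.258). Fosb was at -1.71 ± 0.54 SE, Klf6 at -0.62 ± 0.16 SE and the heat shock gene Hspa1a at -0.55 ± 0.17 SE, with adjusted p from 0.232 to 0.276. The summed signal of the list was 123995 to 146389 in virgin ventral, 101832 to 127120.0 in 16 dpc dorsal and 95537 to 110836 in 16 dpc ventral cells. The part of the dissociation response in the values of Hbegf and Ereg was not tested.

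Marker lists of other cells are given beside these values, and their part in them was not tested. Beyond 1 antigen-presenting cell gene and 1 T cell gene, 0 listed markers passed in 16 dpc ventral over virgin ventral cells. Of 16 differentiation genes of keratinocytes 15 had a lower mean in 16 dpc ventral than in virgin ventral cells (median -0.49), beside 47% of all genes. In 16 dpc dorsal over virgin ventral cells it was also 15 of 16 (median -0.33), beside 39.8%. Their summed signals were 173469 to 174193 in virgin ventral and 141937 to 152400.0 in 16 dpc ventral cells. Among them Lor stood at -0.79 and Notch3 at -0.45 in 16 dpc ventral over virgin ventral cells. Of 14 tested markers of mammary epithelium and milk 8 were lower and 6 higher, and 10 had an unadjusted p below 0.05 beside 11.6% of all genes, with a median of -0.34. Against 16 dpc dorsal cells 7 of 14 had one, beside 5.09%, and the median was 0.53. Of the 19 with a probe set 16 were called present on at least 1 array, Lalba of milk on none. The milk casein genes Csn2 and Csn1s1 were higher in 16 dpc ventral cells. Csn2, called present on 1 virgin array, stood at 172 and 2.29 in virgin and 6185 and 699 in 16 dpc ventral cells (6.71 ± 1.69 SE, adjusted p = 0.219, limma). The value of 2.29 lay below the lowest signal called present on that array, 6.34, so the size of this difference rests on a background reading. Csn1s1, called present on 0 virgin and 2 ventral arrays at 16 dpc, stood at 64.6 and 26.5 and at 1031 and 186 (adjusted p = 0.148). Foxa1 was present on both virgin arrays and on no 16 dpc array, and Xdh stood at 1.24. The list sum was 20001 to 20964 in virgin and 17497.5 to 26253 in 16 dpc ventral cells. Of 5 tested markers of melanocytes, Merkel cells and nerve, 5 were lower. Among them Krt8 and Krt18 also stand on the mammary list and are counted in both. Krt8, present on both virgin, 1 of 2 ventral and 0 of 2 dorsal arrays at 16 dpc, stood at 220 and 474 in virgin ventral and 104 and 9.98 in 16 dpc ventral cells. Krt18 stood at 161 and 413 and at 94.3 and 47.6. The sum of the list was 3173 to 4098 and 2292 to 2425. The melanocyte genes Pmel, Mlana and Sox10 and the Merkel cell keratin gene Krt20 were among the 7 of 14 not called present on any array, while Mitf was present on all 6 (-0.09) and Dct on 4 (-0.12), with overlapping ventral groups for both. Hair follicle and sebaceous markers were lower for 11 of 15 and overlapped in sum (39915 to 57041 and 27812 to 55448). Of antigen-presenting cell markers 12 of 13 were higher, where Csf1r rose (1.76, adjusted p = 0.0406), and of T cell markers 5 of 5, where Thy1 rose (3.07, adjusted p = 0.0104). Of all genes 47% had a lower mean there. In 16 dpc dorsal over virgin ventral cells 13 of 13 and 5 of 5 were higher, with 39.8% of all genes lower. The medians were 0.70 and 0.61 in 16 dpc ventral and 1.05 and 0.58 in 16 dpc dorsal cells. Ptprc stands on both lists and is counted in both. Without a variance trend 0 genes passed in 16 dpc ventral over virgin ventral cells, so the calls of Csf1r and Thy1 were lost. Proliferation genes had a higher mean for 15 of 15 in 16 dpc ventral cells over either other group (medians 0.81 and 0.89, 0 passing), with Cdca8 at 0.96 and 0.80. Over virgin ventral cells 9 of 15 had an unadjusted p below 0.05, beside 11.6% of all genes. Over 16 dpc dorsal cells it was 11 of 15, beside 5.09%. Of T cell markers 6 of 12, Cd3d and Cd3e among them, were not called present on any array, while Cd3g, Ptprc and Itgae were present on all 6. Of fibroblast, vessel, muscle and fat markers 10 of 17, Pdgfra and Pecam1 among them, were not called present on any array. Of the 5 tested 3 were lower and 2 higher. Vim stood at 462 and 396 in virgin and 1077 and 746 in 16 dpc ventral cells (1.07, adjusted p = 0.135), and Dcn, at 122 and 196 in virgin ventral cells, was present on both of those arrays and on 0 of 4 at 16 dpc. Basal keratinocyte genes were higher for 9 of 16 in either comparison.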

How the data were processed

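Per the labels, RNA of sorted α6 integrin-positive cells was measured on Affymetrix mouse arrays of the 3′ kind. The deposited files hold, for each of 6 arrays, a signal intensity per probe set on a linear scale and a call of present, marginal or absent. They were made by the authors with Affymetrix Expression Console version 1, according to the submitters' processing notes, and every array had the same trimmed mean. Total RNA per cell is therefore not measured, and degraded RNA loses signal far from the 3′ end. No genome build was needed for the signals.

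The log2 of each signal was used, with a floor of 1. Of 45101 probe sets, 34945 named a single gene in the platform annotation, and the one of highest mean log2 signal stood for its gene. A gene was kept where some group had it called present on both arrays (10993 of 18193). The headers give a day of gestation slightly off that of the sample labels, and the design text an age range that holds the labelled age; the sample labels were used. Groups came from them and were compared with limma 3.58.1 in R 4.3.3 (lmFit, then eBayes with a mean-level trend), two-sided, with 3 residual degrees of freedom. The methods of the study name no test for its arrays. The script was tested on simulated data. The lowest signal called present per array was 6.34 to 11.3, and the 2 arrays a group limit the precision. Alternatives covered scaling, pseudocount, filter, probe sets, variance model, replicate block, the groups fitted and arrays left out.

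The members and lists were chosen with earlier results of these data known. Named besides the members were, for each pathway list, up to 4 genes of smallest p in either 16 dpc ventral comparison, for markers Itga6, Krt14, Krt10 and up to 2 of smallest p, and the nearest patterns. Krt5, Ier5, Gadd45a, Pik3r1, Mitf, Dct, Cd3g, Itgae, Csn1s1, Csn2 and the markers not called present were named after their values were seen. Predicted genes were not named. Protein sequences were not used here.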

Additional observations from a re-analysis of the deposited data

How the results depend on the processing

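None of the 9 genes passed in any comparison under any alternative. The lowest adjusted p was 0.0577 for Hbegf and 0.0682 for Erbb3 in 16 dpc ventral over virgin ventral cells, both with the replicate number as a block. In that comparison the groups do not overlap for Hbegf, Ereg, Btc and Errfi1, so leaving out an array cannot turn the sign. Alternatives that change only the filter, the variance model, the block or the groups fitted keep the estimate itself. Within these limits Hbegf, Ereg, Btc and Errfi1 kept their direction under every alternative that gave them a value. Their log2 fold changes ran from -2.64 to -1.23, -2.07 to -1.06, -1.32 to -0.59 and -0.63 to -0.23. Erbb3 kept its direction except with the mean of all its probe sets, which averages in one called absent on all 6 arrays. That mean gave 0.21 against virgin ventral cells and 0.45 against 16 dpc dorsal cells. Hbegf and Btc have no value where presence on all 6 arrays was asked, which leaves 7 members.

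The cause of the other changes of sign was not tested. For 16 dpc ventral over 16 dpc dorsal cells, Hbegf (-0.01) was 0.0696 after quantile normalization, 0.0209 with arrays centred on their medians and 0.0411 with all probe sets averaged, and -0.82 to 0.80 with 1 array left out. There Tgfa (0.13) was -0.15 with the mean of all probe sets and -0.0622 to 0.318 with 1 array left out, and Erbb2 (0.06) was -0.0659 to 0.189. Epgn was -0.21 to 0.76 there (0.27 with all arrays) and -0.42 to 0.56 over virgin ventral cells (0.07), and its sign turned without 16 dpc ventral replicate 2 and, over virgin ventral cells, without virgin ventral replicate 2 (-0.0211). Without both 16 dpc arrays of high actin ratio Epgn was -0.42 against virgin ventral and -0.15 against 16 dpc dorsal cells. The first of these is by construction the value without 16 dpc ventral replicate 2 alone. Egfr in 16 dpc dorsal over virgin ventral cells (0.07) was -0.0386 with the mean of all probe sets and -0.11 to 0.25 with 1 array left out. Its -0.11 without both arrays of high actin ratio is by construction the value without 16 dpc dorsal replicate 2 alone. Where an array left out leaves 1 in its group, that array is assumed to vary like the others.

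Column headers give same-numbered arrays a shared prefix of unstated meaning. The deviations of same-numbered arrays from their group means correlated at 0.03 for virgin ventral with 16 dpc dorsal, 0.01 for virgin ventral with 16 dpc ventral and 0.45 for the 16 dpc groups, so the numbers were not taken to pair all samples. With the replicate block 0 members passed, while over all genes 54 rose and 32 fell in 16 dpc ventral over virgin ventral cells, against 15 and 7 without it. Without both arrays of high actin ratio it was 60 and 55, with a mean of all probe sets 4 and 1, and without a variance trend 0 and 0. Without virgin ventral replicate 2 it was 1 and 0, and without 16 dpc dorsal replicate 1 it was 30 and 29. The 2 arrays a group limit the precision of every interval.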
